A study of Mus musculus with 10 samples.

Results

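The genes described here are 31 named members of cholesterol and fatty acid synthesis, chosen by name with earlier results of these data known. No rule on their values was used. They cover the path from acetyl-CoA to cholesterol, its regulators and the enzymes that make, elongate and desaturate fatty acids. The array annotation named a probe set for 30 of the 31, out of 18193 genes measured. Acat2, the cytosolic thiolase that opens the sterol path, had no named probe set, so its expression was not analysed here. Where a gene had several probe sets, the one with the highest mean over all arrays was used. The measured members were 6 entry and isoprenoid enzymes, 11 sterol ring enzymes, 6 regulators and sterol transport genes, and 7 fatty acid enzymes. The first 2 of these classes are called the sterol branch (17 genes).

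Cells make cholesterol from acetyl-CoA through mevalonate, isoprenoid units, squalene and a chain of sterol ring conversions. The genes of this path are driven by the SREBP transcription factors, which SCAP escorts out of the endoplasmic reticulum when sterols are low and which the INSIG proteins hold back when sterols are high. Fatty acids are built from the same acetyl-CoA by acetyl-CoA carboxylase and fatty acid synthase, then lengthened and desaturated, and dividing T cells use both branches to make membrane.

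The cells were CD4+CD25+ T cells, a fraction rich in regulatory T cells, taken with an isolation kit from combined lymph nodes of BALB/c mice aged 17 to 19 days and neither treated nor cultured. Ptpn6 encodes SHP-1, a tyrosine phosphatase, and loss of both copies gives the motheaten phenotype. There were 4 arrays of wild type mice (WT), 3 of mice heterozygous for the SHP-1 knockout (he) and 3 of homozygous mice (me). The loss is carried in the germline and not only in T cells. Per the sample titles the arrays are biological replicates. RNA was amplified from 20 ng of total RNA before labelling.

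Ptpn6 checked the labels. At its 2 probe sets the 3 genotypes did not overlap, with me below WT by a log2 difference of -1.09 and -0.72 and he below WT by -0.45 and -0.32. The 2-sided exact permutation p was 0.0571 for each genotype against WT at both probe sets, the smallest that these numbers of arrays allow. Foxp3 (11.03 ± 0.38, SD, n = 4), Il2ra (10.39 ± 0.20) and Cd4 (9.40 ± 0.14) were present in WT on the log2 scale used throughout, log2(intensity + 32) after quantile normalisation. The median deposited intensity of an array was 148 to 188. Along the first principal component, with 82.0% of the variance, the arrays fell into 2 sets that crossed the genotypes. Set A held WT 1, WT 2, he 1, me 1 and me 3, and set B held WT 3, WT 4, he 2, he 3 and me 2. The array me 3 lay nearest the other set (score -25.3, where the rest of set A scored -56.8 to -54.2 and set B 41.0 to 60.6). All 3 he arrays were female by Xist, whereas WT and me held both sexes. The ratio of 3' to 5' Gapdh signal was 9.92 to 13.8 in me and 7.84 to 9.71 in the other arrays. Each difference below is given first from a limma fit of genotype alone and then with the array set as a block ("blocked"), with the standard error of the fit.

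Because the members are SREBP targets or its controllers, the sequence before their start sites was read from RefSeq (GRCm38.p6), where 24 of the 31 members had an entry. The 250 bases before each start were searched on both strands for the sterol regulatory element in the form TCACNCCAC, the NF-Y box CCAAT, the Sp1 box GGGCGG and the E-box CACGTG. The 150 bases before the start are shown for Hmgcs1, which holds the first 3 of these motifs, for Insig1 and Sc5d, which had the lowest blocked differences from WT among the sterol genes and their regulators, and for Fasn as the fatty acid enzyme. Capitals mark the motif letters on either strand. In Fasn, 1 capital run is CCAAT overlapping its own reverse complement, ATTGG.
Hmgcs1, chr13:119690201-119690350, plus strand: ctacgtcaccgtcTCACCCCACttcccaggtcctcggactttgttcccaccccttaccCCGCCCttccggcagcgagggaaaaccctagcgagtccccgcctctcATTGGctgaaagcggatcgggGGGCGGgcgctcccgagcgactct
Insig1, chr5:28071262-28071411, plus strand: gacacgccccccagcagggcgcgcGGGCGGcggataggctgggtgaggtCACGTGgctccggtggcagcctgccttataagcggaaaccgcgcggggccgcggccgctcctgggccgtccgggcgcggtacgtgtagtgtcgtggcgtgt
Sc5d, chr9:42264301-42264450, minus strand: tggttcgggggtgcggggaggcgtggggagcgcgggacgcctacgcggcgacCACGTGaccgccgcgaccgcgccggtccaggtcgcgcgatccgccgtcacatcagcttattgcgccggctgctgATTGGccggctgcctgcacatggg
Fasn, chr11:120824548-120824697, minus strand: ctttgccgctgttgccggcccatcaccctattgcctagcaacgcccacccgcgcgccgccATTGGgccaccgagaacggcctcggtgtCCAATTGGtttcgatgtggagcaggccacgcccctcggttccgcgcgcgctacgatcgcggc

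The sterol regulatory element in this form was found in 1 of the 24 members, Hmgcs1, beside 1.22% of all 27025 genes in the table. CCAAT was in 19 of 24 members (79.2%, against 37.5% of all genes) and GGGCGG in 20 of 24 (83.3%, against 35.4%). Among the genes measured on this array the shares were 39.4% for CCAAT and 53.4% for GGGCGG. Both boxes stood together in 17 of 24 members (70.8%) and in 21.5% of the measured genes. By branch, CCAAT and GGGCGG were each in 14 of 15 sterol branch genes and in 1 of 4 fatty acid genes with an entry. CACGTG was in 5 of 24 members (20.8%, against 6.86% of all genes and 8.73% of the measured genes), namely Hsd17b7, Sc5d, Dhcr7, Insig1 and Scap. These are matches of letters in a short window and not measured binding.

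No member differed between genotypes after adjustment over the 45037 probe sets. The fit of genotype alone called 0 probe sets in each of the 3 comparisons (0% of those tested), and 280, 134 and 301 had an unadjusted p under 0.05 in the comparisons me with WT, he with WT and me with he, in this order. Of the members only Scd2 was among them, in he against WT (unadjusted p = 0.0144). With the array set as a block the probe sets called were 3 for me against WT (0.00666%) and 0 for the other comparisons (0%), none of them a member, with 1934, 961 and 1447 at an unadjusted p under 0.05. The lowest adjusted p of any member by limma was then 0.923, for Sc5d in me against WT. All directions below are therefore descriptions of these arrays. Fewer cells of a type and less RNA per cell cannot be told apart in RNA from a mixed fraction.

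In he against WT the members leaned low. Blocked differences were below 0 in 24 of the 30 members, with a median of -0.06, whereas 52.5% of all genes were below 0 with a median of -0.005. The regulators were low in 6 of 6 and the fatty acid enzymes in 7 of 7 (median -0.15), while the sterol branch was low in 11 of 17 (median -0.05). Without the block the counts were 24 of 30 in all, 6 of 7 fatty acid enzymes (median -0.22) and 12 of 17 sterol branch genes (median -0.08). The count moved from 24 to 20 of 30 when sex was also a block, where the sterol branch was low in 8 of 17 with a median of 0.02, and ranged from 19 (without WT 4) to 28 (without he 3) when 1 array was left out. The fatty acid enzymes were low in 7 of 7 in each of those blocked fits, all at the brightest probe set of each gene. Their other probe sets had blocked he differences of both signs, from -0.32 (Scd2) to 0.08 (Acaca). With all probe sets of a gene averaged, without the block, 6 of 7 were low with a median of -0.08.

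In me against WT blocked differences were below 0 in 21 of 30 members, with a median of -0.07, against 50.6% of all genes. The fatty acid enzymes were low in 5 of 7 (median -0.11) and the sterol branch in 11 of 17 (median -0.03). The count moved with where me 3 was placed. Without me 3 it was 23 of 30, with 14 of 17 sterol branch genes and 5 of 7 fatty acid enzymes low. With me 3 placed in set B it was 10 of 30, 15 of the 21 low members lay above 0, and the medians became 0.02 for the sterol branch and 0.03 for the fatty acid enzymes. Without a block 20 of 30 were low, with 3 of 7 fatty acid enzymes and a median of 0.0009 in that class. Leaving out 1 array gave 17 (without WT 4 or me 2) to 23 (without WT 1, WT 3 or me 3) of 30 when blocked. Without WT 2 the blocked fatty acid median was 0.0007. Both comparisons share the 4 WT arrays, so their directions are not independent of each other.

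**Figure D1:**
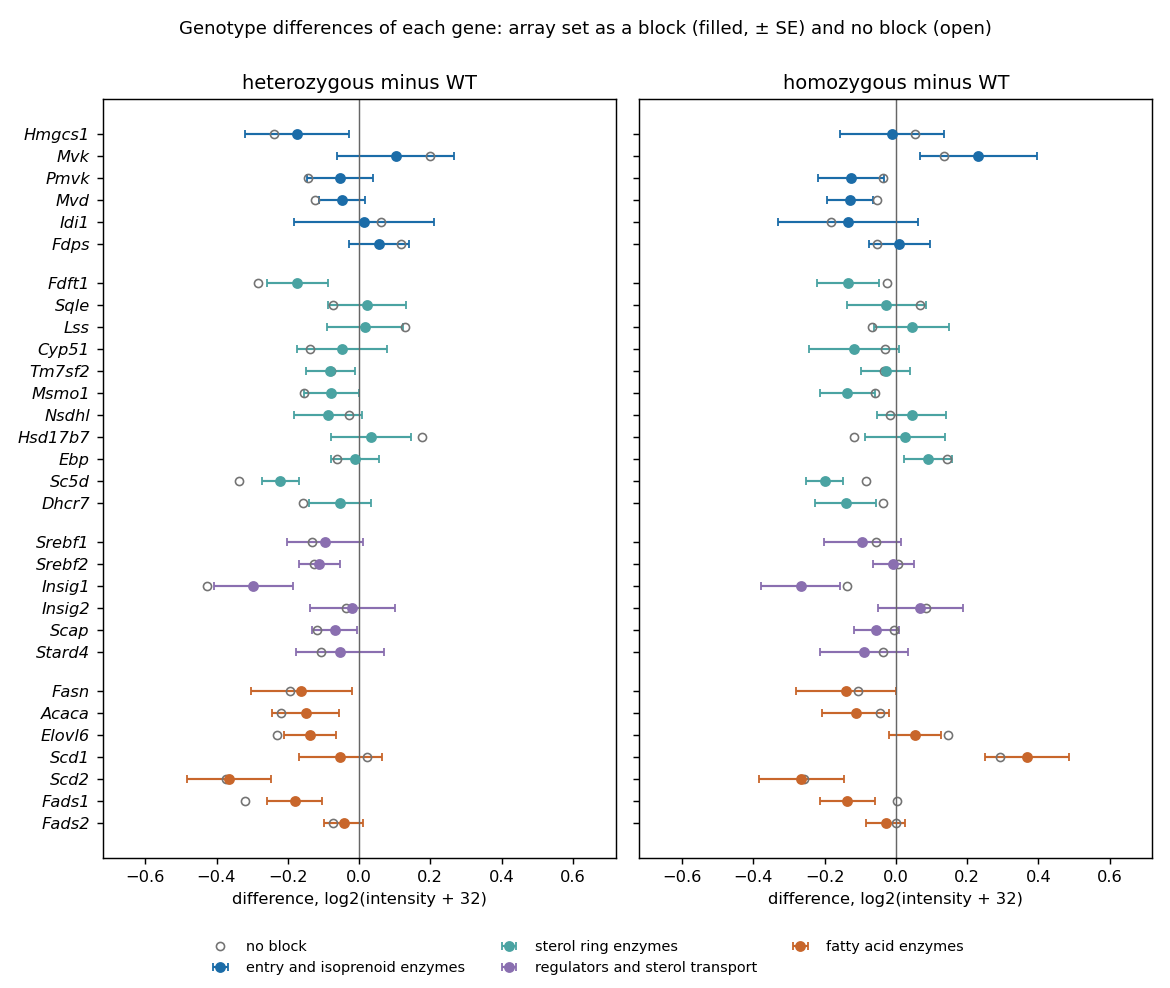
Log2 differences of the 30 measured members (rows, coloured by role) from WT, heterozygous on the left and homozygous on the right; filled points with bars are blocked estimates with their standard errors and open points are unblocked. The filled points lie below 0 in 24 members for he and in 21 for me, and no difference passed adjustment.

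Array by array the lean was uneven. Against the WT mean of its own set, 25 of 30 members were lower in he 1, 26 in he 2 and 19 in he 3. The counts were 16 in me 1, 23 in me 2 and 19 in me 3, where over all genes the share below was 51.4% to 56.1%. In 13 members all 3 he arrays were below the WT mean of their own set, a pattern shown by 15% of all genes, and in 0 members were all 3 above it, against 8.99% of genes. In 8 members all 3 me arrays were below it (19.3% of genes), and in 3, namely Ebp, Elovl6 and Scd1, all were above it (13.1% of genes). Sc5d, Insig1, Fdft1, Scd2 and Fads1 were below it in all 6 mutant arrays, where he and me were set against the same WT arrays. The share of all genes with this joint pattern was not counted.

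**Figure D2:**
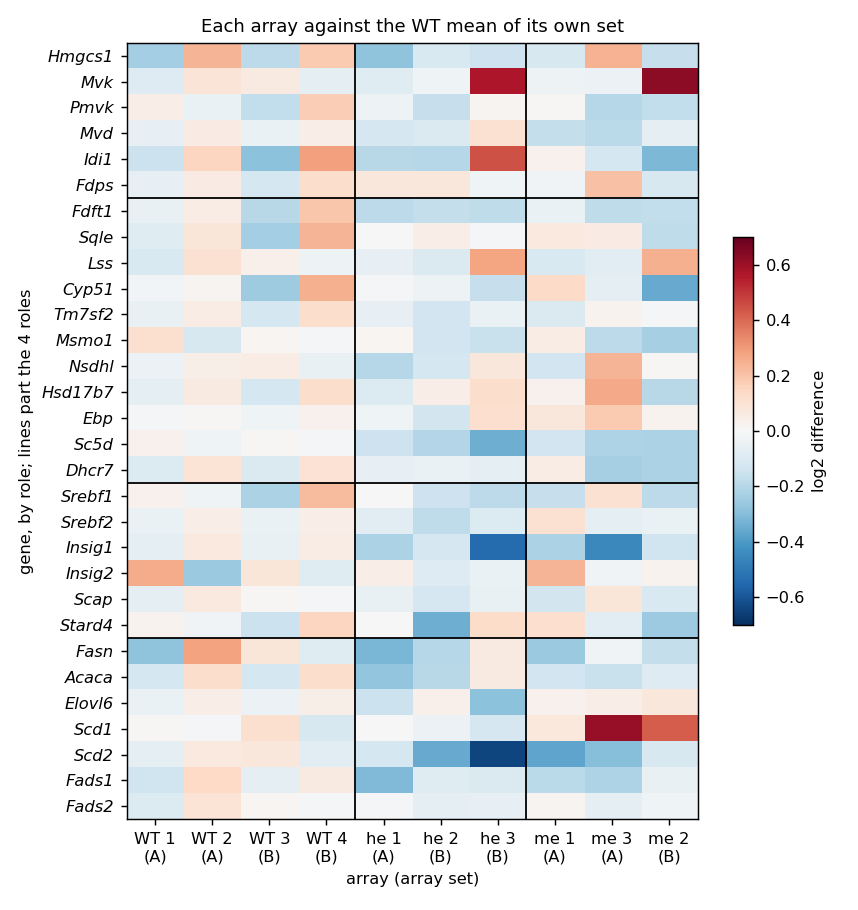
Deviation of each member (rows, by role) in each array (columns) from the WT mean of that array's own set, on the log2 scale. The 2 WT arrays of a set mirror each other by construction. Cells below 0 number 25, 26 and 19 of 30 in the he arrays and 16, 23 and 19 of 30 in the me arrays.

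The entry and isoprenoid enzymes turn acetyl-CoA into mevalonate and then into the prenyl units shared by sterols, ubiquinone and prenylated proteins. Low blocked values stood in 3 of 6 for he and 4 of 6 for me. Hmgcs1, the synthase that makes HMG-CoA, was 9.62, 10.09, 9.30 and 9.66 in WT 1 to 4, 9.57, 9.37 and 9.33 in he 1 to 3, and 9.74, 9.32 and 10.10 in me 1 to 3. The groups overlapped, with WT 2 and me 3 high and WT 3 and me 2 low. Its difference for he was -0.24 ± 0.21, and -0.17 ± 0.15 when blocked. Mvd, which decarboxylates mevalonate diphosphate, was 8.09, 8.21, 7.58 and 7.68 in the WT arrays, 8.03, 7.53 and 7.73 in the he arrays and 7.98, 7.56 and 7.96 in the me arrays. Its blocked difference for me was -0.13 ± 0.06 (-0.05 ± 0.19 unblocked), and set B lay below set A in all 3 genotypes. The kinases Mvk and Pmvk, the isomerase Idi1 and the prenyl transferase Fdps ranged from 7.47 to 9.59 over all arrays. Mvk reached 8.95 in me 2 and 8.89 in he 3 against 7.95 to 8.39 in WT, and its blocked difference for me of 0.23 ± 0.16 was 0.03 without me 2.

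The sterol ring enzymes join farnesyl units into squalene, close the ring and trim it to cholesterol. Of 11, 8 were low for he and 7 for me when blocked. Fdft1, squalene synthase, was 9.68, 9.78, 8.89 and 9.28 in the WT arrays, 9.55, 8.92 and 8.91 in the he arrays and 9.68, 8.91 and 9.55 in the me arrays. Blocked differences were -0.17 ± 0.09 for he and -0.13 ± 0.09 for me, and the groups overlapped in both. They were -0.08 and -0.07 without WT 4, and with me 3 in set B the me difference was 0.07. The remaining 3 probe sets of Fdft1 gave 0.22, 0.06 and 0.18 for me, the opposite direction.

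Sc5d, the sterol desaturase near the end of the path, had the smallest blocked p among the members in both comparisons with WT. It was 8.77, 8.71, 8.10 and 8.09 in the WT arrays, 8.60, 7.89 and 7.75 in the he arrays and 8.60, 7.87 and 8.52 in the me arrays. Within each set every mutant array was below both WT arrays, a pattern not counted over all genes. Blocked differences were -0.22 ± 0.05 for he (0.858-fold, limma unadjusted p = 0.00256) and -0.20 ± 0.05 for me (0.870-fold, unadjusted p = 0.00453). Without the block they were -0.34 ± 0.28 and -0.08 ± 0.28, and with me 3 in set B the me difference was 0.02. The other 2 probe sets of Sc5d were dimmer, with means of 7.73 and 7.53 against 8.29. They gave -0.03 and 0.02 for he, and 0.01 and -0.07 for me. Blocked differences as large as those above thus stood at the brightest probe set alone.

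Dhcr7, which makes cholesterol from dehydrocholesterol, was 9.01, 9.20, 8.42 and 8.62 in the WT arrays, 9.05, 8.47 and 8.45 in the he arrays and 9.16, 8.30 and 8.87 in the me arrays. Its blocked differences were -0.05 ± 0.09 for he and -0.14 ± 0.09 for me. Msmo1, the methylsterol oxidase, was 8.12, 7.90, 7.66 and 7.63 in the WT arrays, 8.02, 7.51 and 7.49 in the he arrays and 8.06, 7.41 and 7.83 in the me arrays. Its difference for me was -0.14 ± 0.08 when blocked and -0.06 ± 0.20 without.

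Both genes followed the array set more than the genotype, with overlap in every comparison. Nsdhl, a sterol dehydrogenase, ran the other way between sets, with 8.84, 8.92, 9.25 and 9.15 in the WT arrays, 8.68, 9.08 and 9.28 in the he arrays and 8.75, 9.21 and 9.12 in the me arrays. Ebp, the sterol isomerase, was 9.61, 9.62, 9.29 and 9.36 in the WT arrays, 9.58, 9.20 and 9.44 in the he arrays and 9.69, 9.35 and 9.80 in the me arrays. All 3 me arrays of Ebp were above the WT mean of their set, though me 2 was below WT 4 and the blocked difference was 0.09 ± 0.07. Sqle, Lss, Cyp51, Tm7sf2 and Hsd17b7 had blocked differences from -0.12 to 0.04, each smaller than its standard error except Tm7sf2 for he (-0.08 ± 0.07).

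The regulators and the sterol carrier were low in 6 of 6 for he and 5 of 6 for me when blocked. Insig1, which holds SCAP in the endoplasmic reticulum and is itself a sensitive SREBP target, was 8.97, 9.11, 8.19 and 8.29 in the WT arrays, 8.82, 8.12 and 7.70 in the he arrays and 8.82, 8.10 and 8.59 in the me arrays. As with Sc5d, every mutant array was below both WT arrays of its set, again not counted over all genes. The array he 3 was the lowest of the 10. Blocked differences were -0.30 ± 0.11 for he (0.814-fold, limma unadjusted p = 0.0259) and -0.27 ± 0.11 for me (0.831-fold, unadjusted p = 0.0398). The he difference was -0.17 without he 3, and with me 3 in set B the me difference was -0.01. At the probe sets used, Insig1 and Sc5d were the 2 members low at an unadjusted p under 0.05 for me, where 2.95% of genes were. Unused probe sets of Idi1 (-0.48), Cyp51 (-0.18) and Scd2 (-0.19) were also low for me at that threshold. For he Insig1 and Sc5d were joined by Scd2 and Fads1, where 1.69% of genes were low. No member was high for he (0.599% of genes).

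Srebf2, the transcription factor that chiefly drives the sterol genes, varied little. It was 8.02, 8.12, 7.97 and 8.07 in the WT arrays, 7.99, 7.84 and 7.92 in the he arrays and 8.17, 7.97 and 8.003 in the me arrays. Its he difference was -0.13 ± 0.07, and -0.11 ± 0.06 when blocked, with he 1 inside the WT range. Srebf1 ranged from 8.89 to 9.36, Scap from 9.24 to 9.71, Insig2 from 8.30 to 8.81 and the carrier Stard4 from 8.20 to 8.87, and their blocked differences lay between -0.10 and 0.07.

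Among the fatty acid enzymes, Scd2 had the largest blocked difference of any member for he, and Scd1 the largest for me, at the probe sets used. Scd2, a stearoyl-CoA desaturase, was 10.78, 10.92, 10.93 and 10.78 in the WT arrays, 10.73, 10.50 and 10.21 in the he arrays and 10.48, 10.74 and 10.55 in the me arrays. It was the only member in which either mutant genotype did not overlap with WT. All he and all me arrays lay below all WT arrays, a pattern shown by 0.583% of genes for he and 0.803% for me, with 0.308% and 0.813% above WT and no member among those. The difference was -0.37 ± 0.12 for he with and without the block (0.776-fold, limma unadjusted p = 0.0137 when blocked), and -0.24 without he 3. For me it was -0.26 ± 0.12 and -0.27 ± 0.12 when blocked, and -0.41 without me 2. Other probe sets of Scd2 gave -0.32 and -0.06 for he and -0.19 and -0.19 for me.

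Scd1, the desaturase encoded beside Scd2 on chromosome 19 with 1 protein-coding gene between them, did not follow it. It was 7.65, 7.64, 8.21 and 7.99 in the WT arrays, 7.65, 8.06 and 7.98 in the he arrays and 7.72, 8.52 and 8.26 in the me arrays. The 3 me arrays were above the WT arrays of their own sets, and me 2 was the highest of all. Against the WT mean of its set, me 1 was higher by 0.07, me 2 by 0.42 and me 3 by 0.61. In set A the rise thus stood mostly in me 3, the array nearest the other set. The me difference was 0.29 ± 0.21, and 0.37 ± 0.12 when blocked (1.29-fold, limma unadjusted p = 0.0122), with 0.25 without me 3 and 0.52 without me 1. It was the only member high at an unadjusted p under 0.05 for me (2.1% of genes). Its other probe set, dimmer with a mean of 7.13 against 7.97, gave -0.01 for me and 0.00 for he.

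Fads1, which desaturates long polyunsaturated fatty acids, was 8.61, 8.89, 7.76 and 7.88 in the WT arrays, 8.44, 7.73 and 7.72 in the he arrays and 8.56, 7.76 and 8.53 in the me arrays. Blocked differences were -0.18 ± 0.08 for he (limma unadjusted p = 0.0450) and -0.14 ± 0.08 for me, against -0.32 ± 0.34 and 0.00 ± 0.34 without the block. Without WT 2 the blocked values were -0.12 for he and -0.05 for me, and with me 3 in set B the me difference was 0.12. Its other probe set, dimmer with a mean of 7.43 against 8.19, gave 0.01 for he and -0.03 for me. Fads2, the next gene on chromosome 19, ranged from 7.50 to 7.83 and was the only member whose mean lay below the median of all probe sets.

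Acaca, acetyl-CoA carboxylase, was 8.83, 9.07, 8.34 and 8.58 in the WT arrays, 8.67, 8.27 and 8.53 in the he arrays and 8.82, 8.37 and 8.80 in the me arrays. Its blocked differences were -0.15 ± 0.09 for he and -0.11 ± 0.09 for me. Fasn, fatty acid synthase, ranged from 9.27 to 10.00, with WT 2 the highest, and gave -0.16 ± 0.14 for he and -0.14 ± 0.14 for me, which were -0.06 and 0.0007 without WT 2. Elovl6, which elongates palmitate, was 8.35, 8.44, 7.78 and 7.86 in the WT arrays, 8.24, 7.86 and 7.54 in the he arrays and 8.42, 7.90 and 8.44 in the me arrays. Its blocked difference was -0.14 ± 0.07 for he (-0.06 without he 3 and -0.22 without he 2) and 0.05 ± 0.07 for me, which was 0.22 with me 3 in set B.

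**Figure D3:**
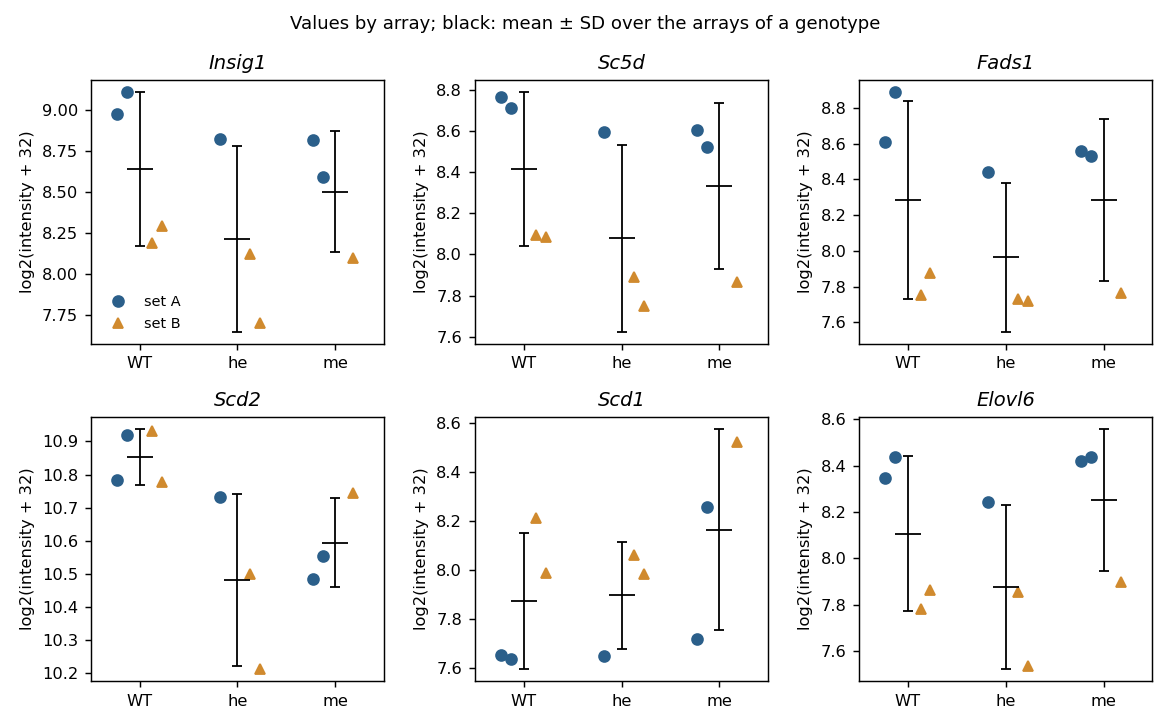
Log2(intensity + 32) values of Insig1, Sc5d, Fads1, Scd2, Scd1 and Elovl6 in every array, by genotype, with the array set marked by point shape and colour and black lines at the mean ± SD of each genotype. Among the 6, only Scd2 has every he and me array below WT, and each me array of Scd1 lies above the WT arrays of its set.

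In me against he, made of the same mutant arrays as above, 10 of 30 members were below 0 when blocked, against 48.04% of all genes. The fatty acid enzymes were higher in me in 7 of 7 (median 0.04), and the sterol branch was lower in 9 of 17 (median -0.008). Without the block 5 of 30 were low, and the medians were 0.17 and 0.09. The 7 of 7 stood at the brightest probe set of each gene. Blocked differences at the other probe sets of the fatty acid enzymes had both signs, from -0.13 (Acaca) to 0.19 (Elovl6). With all probe sets of a gene averaged, without the block, 0 of 7 fatty acid enzymes were lower in me, with a median of 0.09. With array set and sex as blocks the direction turned, with 17 of 30 members and 3 of 7 fatty acid enzymes below 0. Scd1 (0.42 ± 0.13, limma unadjusted p = 0.00984) and Elovl6 (0.19 ± 0.08, unadjusted p = 0.0430) were the 2 members higher in me at an unadjusted p under 0.05 (2.18% of genes), and no member was lower (1.35% of genes). Both were higher in me in both sets, by 0.34 and 0.50 for Scd1 and by 0.19 and 0.20 for Elovl6. Set A held only 1 he array and set B only 1 me array. The other probe set of Scd1 gave a blocked difference of -0.01, and those of Elovl6 gave 0.19 and -0.06. In set A Scd1 was 7.72 in me 1 and 8.26 in me 3, against 7.65 in he 1. The Elovl6 difference was 0.12 without he 3.

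The larger contrast among these arrays was between the sets, which were formed from the same values, so it is described without a test. In set B 22 of 30 members were lower and 8 higher, while 44.8% of all genes were higher. The lowest were Fads1 (-0.84), Insig1 (-0.78), Sc5d (-0.70), Fdft1 (-0.67) and Dhcr7 (-0.61), and the highest Hsd17b7 (0.86), Lss (0.66) and Mvk (0.55). The sets did not overlap in 15 lower members, a pattern shown by 29.6% of all genes, and in 4 higher members (24.6% of genes). The set difference was larger than both blocked genotype differences in 27 of 30, and its median size was 0.42, against 0.28 over all genes. The median size of the blocked genotype differences was 0.10 for me and 0.07 for he, against 0.06 and 0.05 over all genes.

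**Figure D4:**
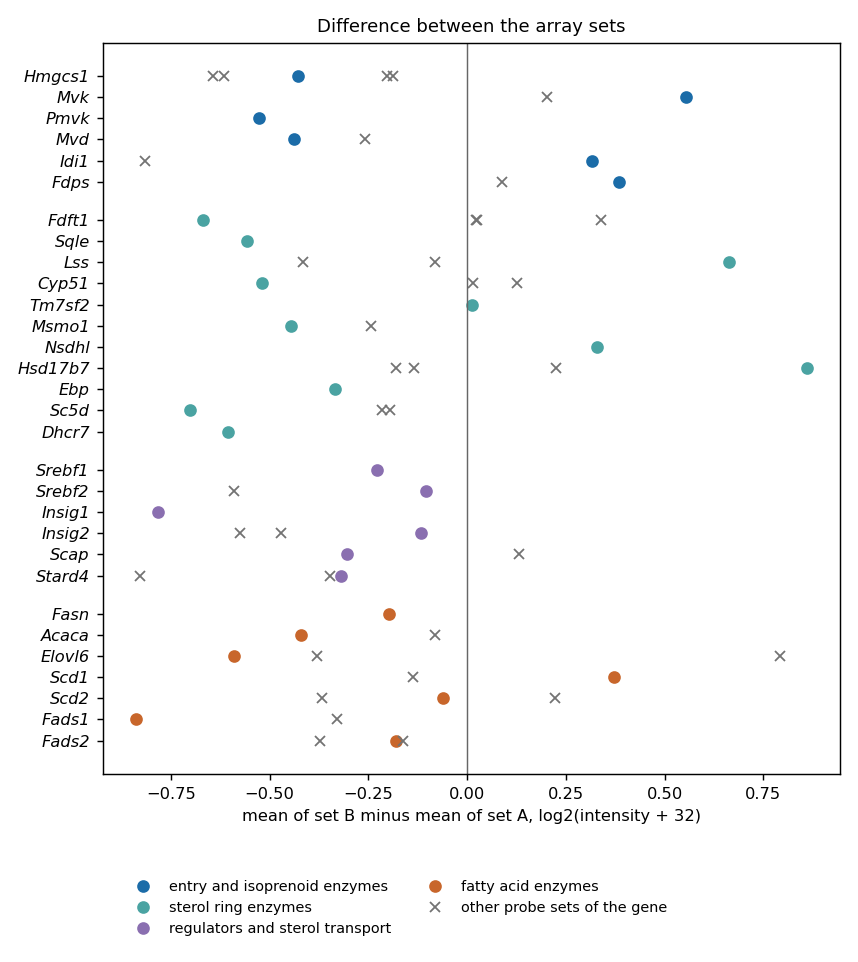
Mean of set B minus mean of set A for each member on the log2(intensity + 32) scale; filled points are the probe set used, coloured by role, and crosses the other probe sets of the gene. The filled points lie below 0 in 22 of 30 members, from -0.84 for Fads1 to 0.86 for Hsd17b7.

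Probe sets of the same gene did not always lean the same way. Of the 21 members with several probe sets (66 in all for the members), blocked differences had both signs in 9 in me with WT, 10 in he with WT and 12 in me with he. The difference between sets had both signs in 9, among them Fdft1, Lss, Cyp51, Elovl6, Scd1 and Scd2. For Cyp51 the dimmer probe sets were lower in me, at -0.23 and -0.18, than the brightest (-0.12 ± 0.13). For Idi1 the dimmer probe set was -0.48 ± 0.20 for me, larger in size than any me difference at the probe sets used, against -0.13 ± 0.20 at the brighter.

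Of 45 other genes of the pathway, 38 were measured and 0 passed in any comparison by limma, with or without the block. When blocked, 4 had an unadjusted p under 0.05 in me against WT, and all were lower. They were Acsl3, which activates fatty acids (-0.40 ± 0.16), Erlin2, which takes part in sterol-regulated degradation in the endoplasmic reticulum (-0.14 ± 0.06), Aacs, acetoacetyl-CoA synthetase (-0.11 ± 0.05) and Coq2, of ubiquinone synthesis (-0.18 ± 0.08). The adjusted p was 0.989 for each. In all, 18 were lower and 20 higher in me, and 20 lower and 18 higher in he, with medians of 0.01 and -0.01.

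Markers of the cells the fraction could hold were read in lists, and no marker passed. Adipocyte markers, relevant because fat surrounds lymph nodes, were higher in 3 of 6 for each genotype when blocked (medians 0.01 and 0.00). Their summed intensity was 1831 to 2363 in WT, 1916 to 2517 in he and 2020 to 2491 in me. Adipor2, at 10.14 to 10.78 over the arrays, weighed most in these sums, where the other markers of the list ran from 7.07 (Cidec) to 8.35 (Retn). Myeloid markers were higher in 9 of 10 in me (median 0.19) and 6 of 10 in he, with sums of 1467 to 1701 in WT, 1457 to 1945 in he and 1623 to 2305 in me. Plasma cell markers were higher in 5 of 8 for both, with sums of 4991 to 7073 in WT, 5485 to 7148 in he and 6916 to 17506 in me. Blocked differences for me were 2.13 ± 0.36 for Jchain and 1.48 ± 0.26 for Ighm. The rest of the list ran from -0.05 (Xbp1) to 0.29 (Mzb1). For he Jchain gave 0.16 ± 0.36 and Ighm 0.26 ± 0.26. Proliferation genes were higher in 7 of 11 for both, with sums of 21436 to 30642 in WT, 20342 to 32259 in he and 23388 to 33699 in me. Treg markers were higher in 5 of 8, CD4 T cell markers in 3 of 4 and stromal markers in 3 of 7 for both genotypes. B cell markers were higher in 5 of 7 for me and 2 of 7 for he, CD8 T and NK cell markers in 6 and 5 of 9, and activation genes in 4 and 3 of 10. The CD8 T and NK sums followed the array set, at 2223 to 2715 in set A and 4783 to 7801 in set B. Cd8a was 7.54 to 7.76 in set A and 11.34 to 12.45 in set B. Cd8b1 was not higher in set B, at 7.43 to 7.80 in set A and 7.38 to 7.57 in set B. No marker was at 0. The part of these cells, of sex and of the Gapdh ratio in the member differences was not tested beyond the block for sex.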

How the data were processed

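Gene expression in 10 samples was measured on 1-colour Affymetrix arrays. The deposited values are linear intensity, 1 per probe set and array. How the authors summarised and scaled the probes is not given in the sources used here. Of 45101 probe sets, 64 controls were dropped after normalisation and 45037 were tested. Values were transformed as log2(intensity + 32) and quantile normalised. Genes were named from the array annotation, in which 34945 probe sets name 1 gene, 932 several and 9160 none. Each gene took the probe set with the highest mean, which gave 18193 genes.

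Genotypes came from the sample titles. All 10 arrays were fitted with limma 3.58.1 in R 4.3.3 (lmFit and eBayes, 7 residual degrees of freedom, 6 with the array set block), and p-values were adjusted by Benjamini-Hochberg over the 45037 probe sets, with 0.05 as the threshold. The scripts were tested on simulated data. Array sets follow the sign of the first principal component. A member was given in every array if among the 8 smallest blocked p-values of any comparison or if its groups did not overlap. Alternatives were the array set, sex and replicate number as blocks, pseudocounts of 1 and 128, no normalisation, median centring, a filter on low values, the mean over probe sets, and leaving out each array. The members and lists were chosen with earlier results of these data known. Replicate numbers gave no consistent pairing of the samples. The number of arrays limits the precision.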

Additional observations from a re-analysis of the deposited data

How the results depend on the processing

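No alternative called a member. In me against WT, 3 probe sets were called with the array set as a block, against 0 in the fit of genotype alone. Leaving out 1 array gave 0 to 2 there without the block (2 without me 2) and 0 to 5 with it (5 without he 2). In me against he, leaving out 1 array gave 0 to 2 with or without the block. For he against WT the count was 0 throughout. The sterol branch median for me against he was 0.09 in the fit of genotype alone and -0.043 with array set and sex as blocks. Leaving out 1 array moved it from -0.0018 to 0.272 without the block and from -0.024 to 0.0403 with it. For he against WT the leave-one-out range was -0.235 to -0.0085 without the block and -0.0845 to 0.0015 with it. For me against WT it was -0.0947 to 0.118 and -0.108 to 0.0148. The fatty acid median for he against WT was below 0 in every fit, from -0.338 to -0.0793. The cause of these shifts was not tested.

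Same-numbered samples did not deviate together throughout (correlations of -0.873 to 0.941). The pairs of number 1, whose samples all lie in set A, gave 0.903 to 0.941, and numbers 2 and 3 gave both signs. Pairing by number and array set cannot be told apart in number 1. With the replicate block, 0 probe sets were called in each comparison, and the sterol branch medians were -0.100 for he and 0.0089 for me against WT. The standard errors of the members' blocked differences ran from 0.053 to 0.196 for either genotype against WT.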
